A study of Homo sapiens with 2 samples.

Results

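Replication-dependent histone genes were examined in the RNA sequencing libraries of the human BCP-ALL (B-cell precursor acute lymphoblastic leukemia) cell lines REH and 697. The genes were chosen by symbol, as the protein-coding H1-1 to H1-6, H2AC, H2BC, H3C and H4C genes of GENCODE 44 that lie in the clusters on chromosomes 6 and 1. The annotation holds 68 such genes. Of these, 32 could be matched by gene ID among the 57773 genes of the files, 23 on chromosome 6 and 9 on chromosome 1. The other 36 carry IDs of the newer annotation that do not occur among the IDs used for counting. Any reads counted for them under older IDs were not looked up, so the 36 genes were not analysed here. The losses were uneven, since all 6 linker histone genes were matched but only 3 of 14 H4 genes, 5 of 13 H3 genes, 8 of 17 H2A genes and 10 of 18 H2B genes. H4C16, the gene on chromosome 12 whose symbol also matches, lies outside the clusters and was kept apart.

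REH is positive for the ETV6/RUNX1 fusion and 697 is negative for it, and as separate lines they differ in more than this fusion. Neither line was given a drug or a genetic change, both were seeded alike in RPMI with serum, and each is a single line with 1 library, so no difference between the lines has a replicate check and no p-value is given. The libraries held 45188375 (REH) and 41097497 (697) reads counted in genes. At this depth, 3 reads, the number that a count of 0 still allows, amount to 0.0597 CPM in REH and 0.0812 CPM in 697, where CPM is the count divided by the TMM-scaled library total, in the usual unit of that name. Of 8 B-cell precursor markers, 7 had at least 4443 reads in each library, and the remaining one, VPREB1, had 3 reads in REH and 10039 in 697. Of 3 T-cell markers found, CD3D had 0 reads in both lines and CD3E had 45 in REH and 0 in 697. The erythroid markers HBA1 and HBB had 0 reads in both. Of 4 myeloid markers, 3 had at least 10 reads in REH, and the summed level of all 4 was 270 CPM in REH, mostly from MPO, and 1.46 CPM in 697. MPO had 12643 reads in REH and 12 in 697, and CSF3R had 920 and 32. The part of this difference in the histone reads was not tested.

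Histones are the proteins around which DNA is wound. H2A, H2B, H3 and H4 form the core of the nucleosome, and H1 binds the linker DNA between cores. The clustered genes are transcribed during S phase to package newly made DNA. Most of their mRNAs have no introns and no poly(A) tail, and end instead in a short stem-loop that is bound by the protein SLBP and processed with the help of the U7 snRNP. Some of these genes also make polyadenylated transcripts that run past the stem-loop, particularly in cells that have left the cycle. A library made from poly(A) RNA and a library made from ribodepleted total RNA therefore see this gene family differently. The sources conflict here, since the labels name ribodepletion of total RNA and the paper's methods name purification of poly(A) RNA. The labels also call the libraries stranded, yet the strand columns held similar numbers (667 and 593 of the H2BC21 reads in REH), so reads from an antisense transcript cannot be told apart from those of a gene.

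The stem-loop was the feature shared by the genes. A search of the 150 bases after the stop codon in GRCh38 found the histone stem-loop, with a 6-base stem whose arms pair and a 4-base loop, in all 68 annotated genes. The search found it in 7 of the 19850 protein-coding genes whose symbols do not match the rule (0.0353%), H2AX, H3-4 and H3-7 among them. H4C16, which is in neither set, also had the stem-loop. On the opposite strand it was found in 2 of the 68 genes and in 3 of the 19850 (0.0151%). The distance from the stop codon had a median of 35 bases and ran from 22 to 67 bases. The same 16 bases stood in 40 of the 68 genes. The sites of 8 genes are shown to compare the most abundantly read genes with others that had few reads. Capitals mark the stem-loop, and the 5 bases on each side are in lower case, 5′ to 3′ on the strand of the gene.
H2BC21 (chr1:149886183-149886208, minus strand): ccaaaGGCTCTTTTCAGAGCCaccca
H2BC12 (chr6:27146361-27146386, minus strand): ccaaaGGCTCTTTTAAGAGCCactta
H2AC6 (chr6:26124664-26124689, plus strand): ccaaaGGCTCTTTTCAGAGCCcccct
H1-2 (chr6:26055739-26055764, minus strand): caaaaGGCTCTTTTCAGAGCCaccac
H2AC11 (chr6:27133510-27133535, plus strand): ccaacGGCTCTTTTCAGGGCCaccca
H4C8 (chr6:26285126-26285151, minus strand): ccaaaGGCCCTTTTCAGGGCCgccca
H4C3 (chr6:26104312-26104337, plus strand): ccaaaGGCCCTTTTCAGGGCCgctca
H3C12 (chr6:27890315-27890340, minus strand): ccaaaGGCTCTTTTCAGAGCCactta
The H4 genes H4C8 and H4C3 had the same stem-loop, yet H4C8 had 41 reads in REH and 148 in 697 and H4C3 had 2 and 9. Likewise H2BC21 and H3C12 shared their 16 bases, with 1260 and 879 reads for H2BC21 and 3 and 11 reads for H3C12. The stem-loop letters alone thus did not separate genes with many reads from genes with few.

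Few reads were counted in the matched genes. The 32 genes together had 2845 reads in REH and 5157 reads in 697. This is 0.00630% of the gene reads in REH (95% exact Clopper-Pearson interval 0.00607% to 0.00653%, counting error only) and 0.0125% in 697 (0.0122% to 0.0129%). At least 10 reads in a library were found for 18 of the 32 genes, against 19145 of all 57773 genes in the files. At least 100 reads were found for 9 of the 32, a minimum at which all genes were not counted. A further 6 genes had between 1 and 9 reads in their higher library, and 8 genes had 0 reads in both.

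The reads lay in a handful of genes. In REH, H2BC21, which encodes an H2B, had 44.3% of the reads of the 32 matched genes, and the 6 genes H2BC21, H2AC6, H2BC12, H2BC5, H2AC11 and H1-2 had 88.4%. In 697 the same 6 genes held 85.7%, with H2BC12, another H2B gene, first at 25.8%. As longer genes give more reads, levels were also set per kb of exon annotated in GENCODE 44. The counts were made on a different annotation, whose exon lengths are not known here, so the order per kb is uncertain. On that scale H2BC12 was highest in both lines, at 15.7 CPM per kb in REH and 72.7 in 697. It was followed in REH by H2BC21 (11.3 CPM per kb) and H2AC11 (5.53), and in 697 by H1-2 (26.8) and H2AC11 (15.4). With coding length in place of exon length, H2BC21 stood at 66.3 and 62.9 CPM per kb in REH and 697, which is above the 20.6 of H2BC12 in REH and below its 95.2 in 697.

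**Figure D1:**
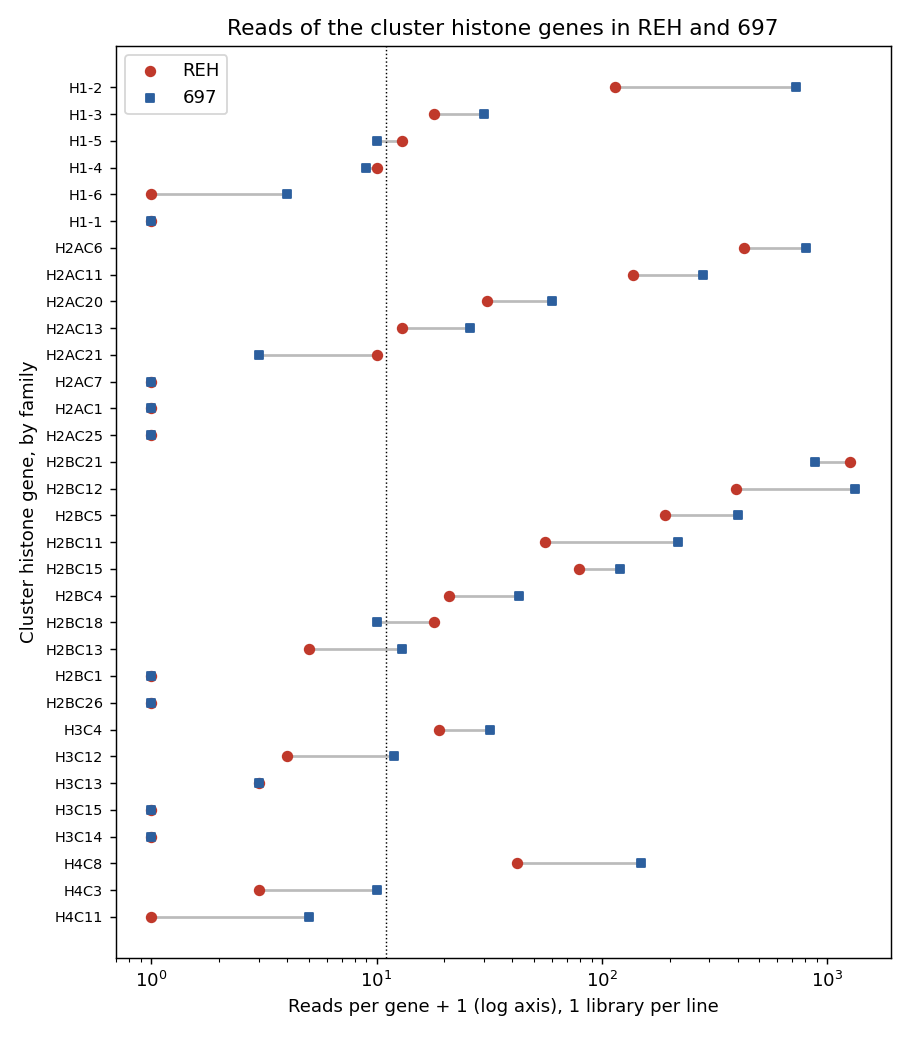
Reads per gene plus 1 (log axis) for the 32 cluster histone genes, with 1 red circle for REH and 1 blue square for 697 per gene, grouped by family from H1 at the top to H4 at the bottom. The dotted line marks 10 reads, and genes at the left edge had 0 reads.

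Uniqueness of the sequence was considered next. In H3C14 and H3C15, which lie in a duplicated stretch of chromosome 1 and encode H3.2, no 75-base stretch of the exons was found only once in GRCh38. Reads that map to several places were not counted, so a 75-base read from these genes could not appear in the files and their 0 reads say nothing of expression. Little of the sequence was unique in H4C11 (8.57% of 75-base stretches, 0 and 4 reads in REH and 697), H3C13 (37.0%, 2 and 2 reads), H2AC13 (38.7%, 12 and 25 reads) and H2BC18 (39.2%, 17 and 9 reads). The values of these genes are lower limits, and the share of reads lost was not tested.

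In most of the other genes the sequence was nearly all unique. Over the 32 genes the median share of unique 75-base stretches was 99.8%, and 16 genes were at 100%. Of those 16, 9 had under 10 reads in both libraries and 5 had 0. The 5 were H2AC1, the linker histone gene H1-1, H2AC7, H2AC25 and H2BC1. Of these, H2AC1 and H2BC1 are best known from the testis. The testis linker histone gene H1-6 had 0 reads in REH and 3 in 697. The remaining gene at 0 in both libraries, H2BC26, had 97.6% of unique stretches. Few reads were also found at 100% unique sequence in H4C3 (2 and 9 reads), H1-4 (9 and 8) and H1-5 (12 and 9), and in H1-3 and H3C4, an H3.1 gene, with 17 and 29 and with 18 and 31 reads. H2AC20 had 82.1% of unique 75-base stretches, and so its reads can be undercounted too. H2BC12, the gene with the most reads in 697, had only 61.0% of unique 75-base stretches and 42.8% of unique 50-base stretches.

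**Figure D2:**
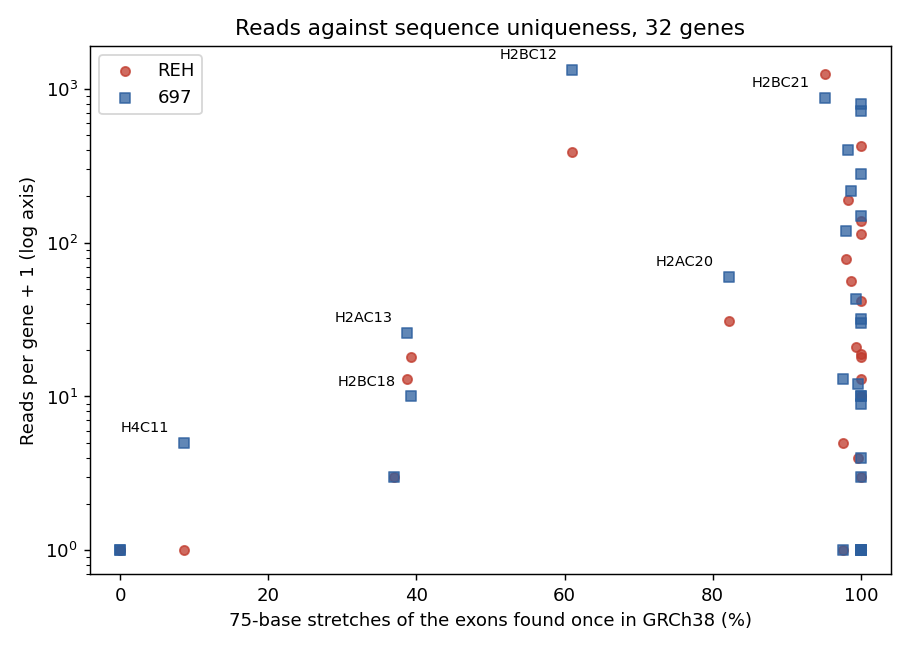
Reads per gene plus 1 (log axis) against the percentage of 75-base exon stretches that occur once in GRCh38, for the 32 genes in REH (red circles) and 697 (blue squares). H3C14 and H3C15 sit at 0% with 0 reads, H2BC12 has the most reads in 697 at 61.0%, and genes at 100% range from 0 to 804 reads.

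Annotated transcripts were considered next. GENCODE 44 lists 53 transcripts for the 32 genes, with 1 transcript for 21 genes, and 11 genes have a spliced form. Reads per gene cannot be assigned to one of these transcripts, so only the gene can be said to be captured. In 11 genes an annotated transcript has over 200 exonic bases past its stop codon, summed over its exons. In a spliced transcript these bases can lie in a separate exon, so they need not run on through the stem-loop. These 11 genes had a median of 41 reads in REH (range 0 to 1260) and 119 reads in 697 (0 to 879). The 21 genes with a shorter end had a median of 4 reads in REH (0 to 391) and 9 in 697 (0 to 1330). The longer genes also have more sequence for reads to fall on, and the groups overlapped widely. The different annotation used for counting can hold other ends for these genes. The 2 shorter-ended genes with the most reads in 697 were H2BC12 and H1-2, with 1330 and 723 reads.

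The 6 genes listed because they are known to make polyadenylated transcripts (H1-2, H2AC6, H2BC4, H2BC5, H2BC12 and H2BC21) accounted for 84.3% of the reads of the 32 matched genes in REH (95% exact interval 82.9% to 85.6%) and 81.0% in 697 (79.9% to 82.1%). All 6 were among the matched genes, whereas 36 other cluster genes are absent from this denominator. Among them H2BC4 had 20 and 42 reads, so membership of this list did not go with a high count in each case. H2AC11, which is not on the list, had 137 and 281 reads. The list was chosen with earlier results of these data known, so these shares are no independent result. The RNA selection behind them was not tested.

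The lines were then compared, with log2 ratios of REH over 697 after TMM scaling. Most captured genes were lower in the REH library than in the 697 library. Of the 18 genes that reached 10 reads in either line, 16 were below 0 (88.9%, against 47.9% of all 19145 genes compared). The counting interval lay wholly below 0 for 15 genes (83.3%, against 38.2% of all genes) and wholly above 0 for 0. A ratio of -1 or lower was found for 15 (83.3%, against 17.4%). With a threshold of 2 on the size of the log2 ratio, 5 genes were higher in 697 (27.8%, against 8.15%) and 0 were higher in REH (against 12.5% of all genes). With unscaled totals 2 of the 5 remained, H1-2 and H2BC11, while H4C8, H2BC12 and H3C12 stood at -1.98, -1.90 and -1.85. The median log2 ratio was -1.48, against 0.05 over all genes. Summed over the 32 genes, the level was 56.6 CPM in REH and 140 CPM in 697, which is 2.47-fold higher in 697 (log2 ratio -1.30, counting interval -1.37 to -1.24). As the sources conflict on the RNA selection, these reads cannot be taken as a measure of all histone mRNA. In bulk RNA, fewer cells in S phase and less histone mRNA per cell cannot be told apart either.

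**Figure D3:**
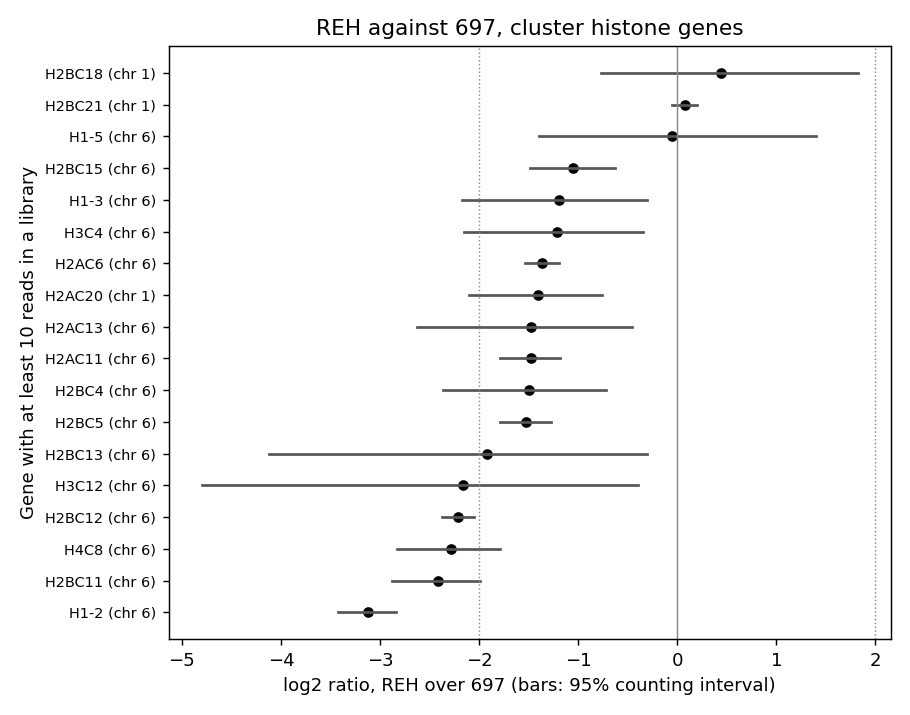
log2 ratio of REH over 697 (points) with 95% counting intervals (bars) for the 18 genes that reached 10 reads in either line, with the chromosome in brackets. The solid line marks 0 and the dotted lines -2 and 2; 15 bars lie wholly below 0, and the bars of H1-5, H2BC18 and H2BC21 cross 0.

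Among the linker histone genes, H1-2 differed most. It had 113 reads in REH and 723 in 697, or 2.25 and 19.6 CPM, a log2 ratio of -3.12 (counting interval -3.42 to -2.83) and 8.67-fold more in 697. The other linker genes had far fewer reads. H1-3 was lower in REH, with a log2 ratio of -1.20 (-2.17 to -0.30). For H1-4 and H1-5 the reads were similar and their intervals spanned 0 (-1.82 to 1.30 for H1-4 and -1.40 to 1.40 for H1-5), which leaves differences of over 2-fold in either direction undetectable at this depth.

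The H2A genes differed by similar amounts. H2AC6 had 426 reads in REH and 804 in 697 (8.47 and 21.8 CPM), with a log2 ratio of -1.36 (-1.53 to -1.19). H2AC11 had 137 and 281 reads (2.73 and 7.61 CPM) and a ratio of -1.48 (-1.79 to -1.18). For H2AC20 (30 and 59 reads) and H2AC13 (12 and 25 reads) the ratios were -1.41 and -1.47. The 4 H2A genes with at least 10 reads thus lay between -1.48 and -1.36, closer to each other than their counting intervals are wide. H2AC21 had 9 reads in REH and 2 in 697, and its interval (-0.55 to 4.98) included 0.

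The H2B genes were less uniform. H2BC12 had 391 reads in REH and 1330 in 697 (7.78 and 36.0 CPM), with a log2 ratio of -2.21 (-2.38 to -2.05). H2BC11 had 55 and 217 reads (1.09 and 5.87 CPM) and a ratio of -2.41 (-2.88 to -1.99). H2BC5 had 189 and 401 reads (3.76 and 10.9 CPM) and a ratio of -1.53 (-1.79 to -1.28). Smaller in size was the ratio of H2BC15, with 78 and 119 reads, at -1.05 (-1.48 to -0.63), and it depended on the strand column, at -1.58 in the first and -0.42 in the second. H2BC4 and H2BC13 stood at -1.50 and -1.92, the latter on 4 and 12 reads.

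H2BC21 on chromosome 1 was the exception. It had 1260 reads in REH and 879 in 697, which after scaling came to 25.1 and 23.8 CPM and a log2 ratio of 0.08 (-0.05 to 0.20). Its interval did not overlap that of H2BC15, the H2B gene on chromosome 6 nearest to it in ratio. H2BC18, also on chromosome 1, had 17 and 9 reads and a ratio of 0.44 with an interval that included 0 (-0.77 to 1.82). Without H2BC21 the summed reads were 1585 in REH and 4278 in 697, and the log2 ratio of the sums became -1.88 (-1.96 to -1.79), a calculation added after the values were seen.

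The matched H3 and H4 genes had few reads, and as only 5 of 13 H3 and 3 of 14 H4 genes were matched, the level of either family as a whole was not measured. The 5 matched H3 genes had 23 reads in REH and 44 in 697 in total, of which H3C4 had 18 and 31 (log2 ratio -1.21, interval -2.15 to -0.35). H3C12 had 3 and 11 reads and a ratio of -2.16 (-4.80 to -0.40), so that its place among the 5 genes past the threshold rests on few reads. Among the 3 matched H4 genes, all of which encode the same protein, H4C8 had nearly all reads, with 41 in REH against 148 in 697 (0.816 and 4.01 CPM), a log2 ratio of -2.28 (-2.83 to -1.79). H4C3 had 2 and 9 reads and H4C11 0 and 4.

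By cluster, the 15 genes with at least 10 reads on chromosome 6 were all below 0, between -3.12 and -0.05, with a median of -1.50. The summed level of the 23 matched genes was 30.4 CPM in REH against 114 CPM in 697, a log2 ratio of -1.91 (-1.99 to -1.82). On chromosome 1 only 3 genes had at least 10 reads, H2BC21, H2BC18 and H2AC20. The summed levels of the 9 matched genes there were 26.2 and 25.7 CPM (log2 ratio 0.03, interval -0.09 to 0.15), of which H2BC21 made up nearly all. Of these 9 genes, H2AC25 and H2BC26 form a separate group far from the others, from base 228434777 onwards, and had 0 reads in both lines. H2AC20, the neighbour of H2BC21, was below 0 like the genes of chromosome 6, at -1.41 (-2.11 to -0.76).

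**Figure D4:**
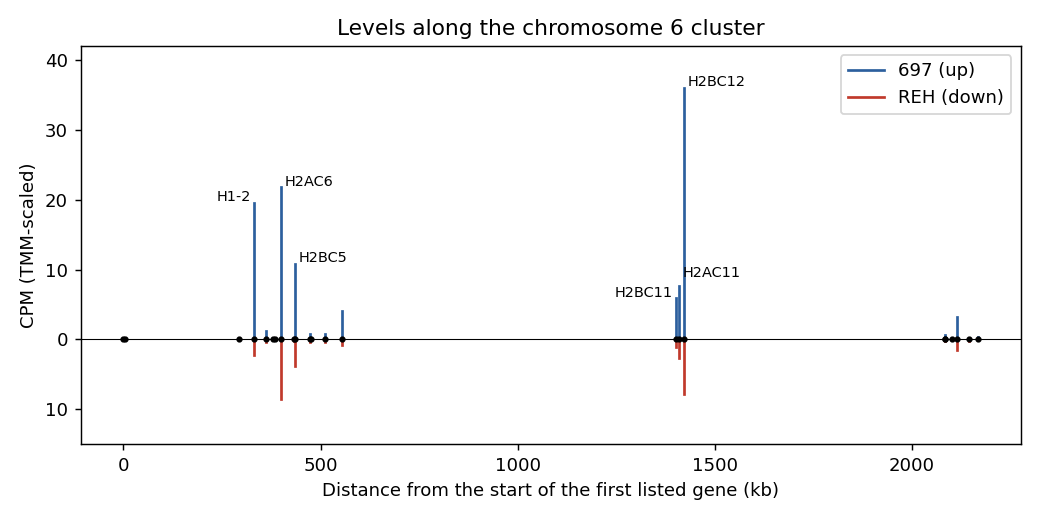
Level in CPM of the 23 matched genes along the chromosome 6 cluster, plotted by distance in kb from the start of the first one, with 697 drawn upwards in blue and REH downwards in red. H2BC12 reached 36.0 CPM in 697 and 7.78 CPM in REH, and the genes at the left edge had 0 reads in both.

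Many H2A and H2B genes lie head to head and share the promoter between them. Among the matched genes there were 6 such pairs with starts under 400 bases apart. In H2BC21 and H2AC20 the partners were 235 bases apart and had 1260 and 30 reads in REH and 879 and 59 in 697. In H2BC4 and H2AC6 (218 bases) they had 20 and 426 reads in REH and 42 and 804 in 697. The partners were closer in H2BC11 and H2AC11 (247 bases), with 55 and 137 reads in REH and 217 and 281 in 697, and in H2BC13 and H2AC13 (243 bases), with 4 and 12 in REH and 12 and 25 in 697. The other 2 pairs, H2AC25 with H2BC26 and H2AC1 with H2BC1, had 0 reads throughout. A shared promoter therefore went with unequal reads of the partners in the first pairs, whose annotated exon lengths also differ (2224 bases for H2BC21 and 494 for H2AC20, 2881 for H2BC4 and 1668 for H2AC6). Per kb of exon, H2BC21 had 11.3 CPM in REH and H2AC20 1.21, and H2AC6 had 5.08 and H2BC4 0.138.

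The promoter of H2BC21 is shown because it lies between H2BC21, whose levels were close in both lines, and H2AC20, which was lower in REH. It runs from 250 bases before to 50 bases after the start, at chr1:149886633-149886932 (minus strand, GRCh38.p14, RefSeq), and reaches past the start of H2AC20. Capitals mark the TATA, CCAAT and octamer motifs described after the sequence, on either strand.
H2BC21: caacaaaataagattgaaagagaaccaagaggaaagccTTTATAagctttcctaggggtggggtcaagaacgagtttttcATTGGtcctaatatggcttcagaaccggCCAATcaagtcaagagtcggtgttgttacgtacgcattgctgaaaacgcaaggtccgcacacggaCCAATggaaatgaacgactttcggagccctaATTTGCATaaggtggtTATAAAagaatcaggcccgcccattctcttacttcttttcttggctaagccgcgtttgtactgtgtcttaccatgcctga
TATAAA is the core of the TATA box, CCAAT is bound by NF-Y, and ATTTGCAT is the octamer bound by POU2F1 (OCT1), which is known for its part in H2B transcription. Promoters in the RefSeq table were matched for 30 of the 32 genes, all but H4C3 and H3C12, at the listed start nearest to that of the gene in GENCODE. With both strands searched, CCAAT was found in 28 of the 30 (93.3%, against 34.5% of 35048 other promoters), TATAAA in 21 (70.0%, against 11.4%) and ATTTGCAT in 12 (40.0%, against 1.70%). The octamer stood in 6 of 10 H2B promoters and 6 of 8 H2A promoters, many of which are the same stretch read from either end. It stood in 0 of 6 H1 and 0 of 4 H3 promoters. H2BC1 and H2AC1, with 0 reads, held all 3 motifs as H2BC21 did. A match is a description of these letters and not a measured binding site.

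Finally, genes around the histone genes were set beside them. The replication-independent histones, which are polyadenylated and made throughout the cycle, were far more abundant in reads, with 2189 CPM in REH and 2398 CPM in 697 summed over 11 genes. Of the 9 with at least 10 reads, 5 were below 0 and 4 above, with a median of -0.21. H3-3B, an H3.3 gene, was lower in REH (14985 and 24087 reads, log2 ratio -1.13, interval -1.16 to -1.10), as was H2AZ1 (14612 and 23005 reads, -1.10). H2AJ, an H2A variant, went the other way, with 1687 reads in REH and 1 in 697. H2AX, which lies outside the clusters, had 7917 and 10130 reads (log2 ratio -0.80), and H4C16 had 111 and 100 reads (log2 ratio -0.29, interval -0.70 to 0.11).

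None of the genes that make or process histone mRNAs passed a log2 ratio of 2 in size. Of 4 genes listed for histone gene transcription (NPAT, HINFP, CASP8AP2 and POU2F1), 3 were above 0 and 1 below (median 0.38). The one below was NPAT, the coactivator that starts histone transcription at the entry to S phase, at -0.20 with 2232 and 1888 reads. Of 8 processing factors, 4 were above and 4 below 0 (median 0.02), and SLBP itself was higher in REH, with 6428 and 2883 reads (log2 ratio 0.71, interval 0.65 to 0.78). Of 4 genes of histone mRNA translation and decay, 3 were above 0 (median 0.14), and of 8 histone chaperones, 3 (median -0.10).

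The S-phase genes lay mostly on the same side of 0 as the histone genes. Of 14 such genes, 13 were below 0 in REH and 1, CCNE1, was above (1254 and 351 reads, log2 ratio 1.39). Their median was -0.53, their lowest ratio -0.93 for RRM2, and 0 of them lay at -1 or lower. This list's part in the lower histone reads of REH was not tested. Without TMM scaling, every ratio rises by 0.31, and then 10 of the 14 S-phase genes and 15 of the 18 histone genes were below 0.

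**Figure D5:**
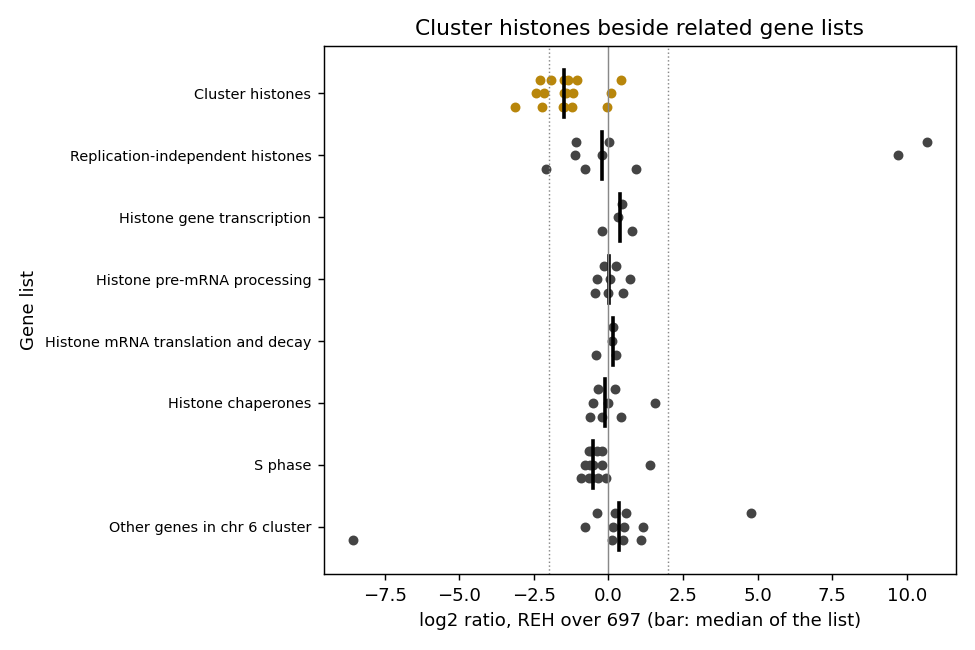
log2 ratio of REH over 697 for the genes of 8 lists that reached 10 reads in either line, with 1 point per gene and a vertical bar at the median. The cluster histones (gold, median -1.48) lie mostly left of 0, the S-phase list has a median of -0.53, and H2AJ is among the points far to the right in the replication-independent list.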

How the data were processed

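Each line had 1 RNA library. The authors deposited unnormalized read counts, made by STAR for each gene, with 1 column for reads on either strand (used here) and 1 for each strand. Multimapping reads were not counted. The study names hg38 and the submitters' processing notes name hg19. Which gene annotation was counted is not given in the sources used here. Gene IDs were looked up in GENCODE 44 (GRCh38) for symbols, positions and lengths (51996 matched, 5777 not, the latter holding 0.855% of gene reads in REH and 0.789% in 697).

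Genes reaching 10 reads in either line were compared. Totals were scaled with TMM in edgeR 4.0.16 (R 4.3.3; factors 1.11 for REH and 0.899 for 697), and 0.5 reads were added before log2. Counting intervals are 95% exact Clopper-Pearson intervals on the part of each gene's reads that came from REH, and they cover counting error only. With 1 library per line no test was made, and a difference was called at a threshold of 2 on the size of the log2 ratio. The computation was tested on simulated data. Alternatives included DESeq2 1.42.0 size factors. Uniqueness is the share of exon stretches of 50 or 75 bases with 1 exact match in GRCh38 chromosomes.

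Every gene of the rule may be named. Full statistics went to the 3 highest per kb in each line and, among genes with at least 100 reads, to the 5 intervals farthest from 0 in each direction and all past the threshold. H2AC6, H2BC15 and the other genes given with intervals were added after their values were seen. The genes and lists were chosen with earlier results of these data known.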

Additional observations from a re-analysis of the deposited data

How the results depend on the processing

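No paired analysis was possible because REH and 697 have 1 library apiece, and for the same reason no library could be left out. The medians of all cluster histone genes, of the H2A, H2B and H4 genes and of chromosome 6 were at -1.13 or lower under each alternative run. The H4 median rested on 1 gene, H4C8, in the values reported. The number of genes with at least 10 reads was 14 in either strand column, against 18. The median of the H3 genes, resting on 2 genes in the values reported, was -0.72 in the first strand column, -1.21 with a minimum of 1 read and -1.92 in the second strand column, against -1.69, and had no value with a minimum of 50 reads. The number higher in 697 was 2 with unscaled totals, 8 with a minimum of 1 read and 15 at a threshold of 1, against 5. The median of the H1 genes was -3.10 with a minimum of 50 reads and -2.25 in the second strand column, against -1.20. The median of chromosome 1, which rests on 3 genes, was 0.38 with unscaled totals, -0.65 with a minimum of 50 reads and -0.75 in the second strand column, against 0.08. The matched genes' share of gene reads was 0.00564% in REH and 0.0110% in 697 in the second strand column, and 0.0134% in 697 without mitochondrial genes. The log2 ratio of the summed reads was -1.88 without H2BC21. None of the 9 genes with at least 100 reads changed the sign of its ratio with another scaling, with 5 reads added or in a strand column. Depth limits the genes under 10 reads, whose ratios cannot be read.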

Other observations

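Other genes lie between the histone genes of chromosome 6, among them the butyrophilins, cell surface proteins of the immune system. Of 19 such protein-coding genes in the files, 12 had at least 10 reads, and 9 of these were above 0 and 3 below, with a median log2 ratio of 0.35. The histone genes around them had a median of -1.50. TRIM38 had 5802 reads in REH against 1900 in 697, a log2 ratio of 1.17 (1.09 to 1.24), and BTN2A2 had 4454 and 1545 (1.08, interval 1.00 to 1.17). HFE, which controls iron uptake, had 169 and 4 reads (4.79, interval 3.57 to 6.85), whereas the zinc finger gene ZNF391 had 0 reads in REH and 139 in 697. HMGN4, a nucleosome-binding protein gene, had 2979 and 3752 reads (-0.78, interval -0.85 to -0.71).

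Of the histone chaperones, which hand histones to newly made DNA, ASF1A differed most, with 2730 reads in REH against 684 in 697, a log2 ratio of 1.55 (1.43 to 1.68). CHAF1A, a subunit of the chromatin assembly factor, was at -0.62 and its partner CHAF1B at 0.43.

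RNAs that carry no long poly(A) tail were looked up after the values above were seen. The telomerase RNA TERC had 11 reads in REH and 10 in 697, and the U7 snRNA gene RNU7-1 had 0 in both. RNU7-1 is only 63 bases long, and whether these libraries could capture so short an RNA was not tested. The other 4 RNAs on that list were not matched by gene ID and were not analysed here.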
